A study of Homo sapiens and Mus musculus with 10 samples.

Results

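Accessible chromatin was examined at 9 human genes that encode mesenchymal transcription factors: TWIST1, TWIST2, PRRX1, PRRX2, TBX15, TBX18, TCF21, HAND2 and OSR2. The genes were chosen by name from GENCODE release 44, and they are 9 of 19970 protein-coding genes on the autosomes and X. For each gene, the peaks within 1 kb of any annotated start site (its promoter peaks) and the peaks within 100 kb of the gene body (its nearby peaks) were listed in the human peak lists. The fibroblast line HFF1 was then set against the other human lines. Bulk ATAC-seq cuts open chromatin with the Tn5 transposase, and each of the 10 libraries of the series has its own peak list. HFF1 is a human foreskin fibroblast line, GM12878 a B-lymphoblastoid line immortalised with Epstein-Barr virus, HEK293T a line from embryonic kidney with the large T antigen of SV40, and K562 an erythroleukaemia line. These 4 human lines and mouse embryonic stem cells (mESC, grown without feeders) had 2 replicates each, and the labels name no treatment. The labels do not say whether replicates came from separate cultures, so their spread may be technical.

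Mesenchymal transcription factors pattern the loose connective tissue of the embryo and remain active in many adult fibroblasts, where the set in use reflects the part of the body the cells came from. TWIST1, TWIST2, TCF21 and HAND2 are basic helix-loop-helix (bHLH) proteins, which bind E-boxes as dimers with broadly expressed partners such as TCF3 and TCF12. PRRX1 and PRRX2 are paired-type homeodomain proteins of limb and craniofacial mesenchyme. TBX15 and TBX18 are T-box proteins, and OSR2 is a zinc finger protein of the odd-skipped family. Genes of this kind often lie in gene-poor surroundings with many distant enhancers, and their CpG-rich promoters can be open in cells that do not use the gene. A promoter peak is therefore no measure of expression, and expression was not measured here.

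Sequences of sites with peaks in HFF1 alone are shown first, because none of the 9 genes had a promoter with that pattern. A region here is a merged stretch of overlapping peaks, and it is called in a line when both replicates have a peak in it. It is HFF1-only when it is called in HFF1 and no library of another line has a peak there. Each of the 10 sequences below is taken from GRCh38 and holds the summit in HFF1 replicate 1 with 75 bp on either side, on the plus strand. Each belongs to a distal HFF1-only region that ranked first or second for its gene by the lower −log10 p of the HFF1 replicates. There were 16 such windows for the 8 genes other than OSR2, of which 5 held AP-1 letters and 3 held none of the 6 motifs searched. The 10 printed were chosen after the letters were seen, to show each kind found, and include all 5 with AP-1 letters, so they are no measure of how often letters occur. Capitals mark the letters searched on both strands: TGACTCA or TGAGTCA (AP-1), CATCTG (an E-box of TWIST and HAND dimers), TAATTA (homeodomain), AGGTGTGA (T-box), GGAATG (TEAD) and TGTGGT (RUNX).
TWIST1, upstream, chr7:19134075-19134225: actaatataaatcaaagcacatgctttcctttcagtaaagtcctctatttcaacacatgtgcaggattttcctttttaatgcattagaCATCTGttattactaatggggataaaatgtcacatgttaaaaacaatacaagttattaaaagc
TWIST2, upstream, chr2:238811899-238812049: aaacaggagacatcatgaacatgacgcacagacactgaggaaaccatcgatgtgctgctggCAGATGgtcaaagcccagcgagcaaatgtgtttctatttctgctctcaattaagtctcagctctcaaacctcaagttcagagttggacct
TWIST2, downstream, chr2:238938697-238938847: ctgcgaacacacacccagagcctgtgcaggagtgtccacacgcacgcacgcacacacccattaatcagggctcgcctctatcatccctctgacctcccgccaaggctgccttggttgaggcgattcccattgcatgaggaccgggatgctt
PRRX1, upstream, chr1:170623266-170623416: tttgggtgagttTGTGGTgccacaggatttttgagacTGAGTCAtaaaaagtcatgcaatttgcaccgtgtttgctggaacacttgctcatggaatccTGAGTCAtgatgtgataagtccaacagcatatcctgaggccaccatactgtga
PRRX2, downstream, chr9:129761665-129761815: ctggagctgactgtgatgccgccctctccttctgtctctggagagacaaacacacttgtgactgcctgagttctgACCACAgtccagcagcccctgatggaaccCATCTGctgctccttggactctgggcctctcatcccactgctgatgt
TBX15, upstream, chr1:119075694-119075844: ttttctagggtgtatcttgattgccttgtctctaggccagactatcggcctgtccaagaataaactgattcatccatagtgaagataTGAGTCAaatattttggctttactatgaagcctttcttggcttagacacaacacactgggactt
TBX18, downstream, chr6:84645943-84646093: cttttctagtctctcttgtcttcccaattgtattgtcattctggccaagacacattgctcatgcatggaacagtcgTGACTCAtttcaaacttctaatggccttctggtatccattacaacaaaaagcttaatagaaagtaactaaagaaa
TBX18, downstream, chr6:84652498-84652648: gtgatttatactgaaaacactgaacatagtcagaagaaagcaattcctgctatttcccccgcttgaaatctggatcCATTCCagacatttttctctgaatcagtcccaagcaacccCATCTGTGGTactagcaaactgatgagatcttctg
TCF21, downstream, chr6:133978344-133978494: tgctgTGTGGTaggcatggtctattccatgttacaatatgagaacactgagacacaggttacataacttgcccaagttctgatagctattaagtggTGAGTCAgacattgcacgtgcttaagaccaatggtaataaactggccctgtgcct
HAND2, downstream, chr4:173425346-173425496: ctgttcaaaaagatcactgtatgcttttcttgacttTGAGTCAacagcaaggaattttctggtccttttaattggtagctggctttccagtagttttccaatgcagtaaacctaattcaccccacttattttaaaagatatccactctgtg
The PRRX1 site holds 2 AP-1 heptamers and 1 RUNX hexamer. In the chr6:84652498-84652648 window of TBX18, the E-box and RUNX letters overlap in 1 run of capitals. The downstream TWIST2 site holds none of the 6 motifs, which says only that these letters are not in this window. Windows of the same kind and length at all 47510 distal HFF1-only regions held AP-1 letters in 22.7%, CATCTG in 26.5%, TAATTA in 2.92%, AGGTGTGA in 0.204%, GGAATG in 16.9% and TGTGGT in 16.1%.

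Promoter sequences of 6 of the 9 genes were found in the RefSeq promoter table (GRCh38.p14), and TWIST1, TBX15 and OSR2 had no entry. The 250 bp before the start site are shown for PRRX2 and TBX18, because the PRRX2 promoter was called in HFF1 and GM12878 while the region over the TBX18 stretch was called in HFF1, HEK293T and K562.
PRRX2 promoter, chr9:129665397-129665646, plus strand: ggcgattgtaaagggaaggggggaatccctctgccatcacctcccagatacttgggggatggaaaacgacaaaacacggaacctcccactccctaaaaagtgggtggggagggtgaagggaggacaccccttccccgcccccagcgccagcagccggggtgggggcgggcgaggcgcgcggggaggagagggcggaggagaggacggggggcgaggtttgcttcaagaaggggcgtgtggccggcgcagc
TBX18 promoter, chr6:84764599-84764848, minus strand: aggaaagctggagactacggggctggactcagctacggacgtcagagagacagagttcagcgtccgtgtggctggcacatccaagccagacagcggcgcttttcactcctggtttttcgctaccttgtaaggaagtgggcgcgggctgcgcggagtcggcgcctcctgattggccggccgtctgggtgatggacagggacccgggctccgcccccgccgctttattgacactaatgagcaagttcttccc
Neither stretch holds any of the 6 motifs, which all 250 bp stretches of that table held in 4.16% (AP-1), 12.2% (CATCTG), 4.49% (TAATTA), 0.787% (AGGTGTGA), 11.9% (GGAATG) and 10.9% (TGTGGT) of 27305 entries.

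The lists differ in length and depth. HFF1 had 127359 and 120344 peaks on the autosomes and X, against 52137 to 103715 in the 6 other human libraries. The background level of a library, recovered from the deposited values and rising with depth, was 0.465 and 0.466 reads per window in HEK293T and 1.71 to 2.43 in the 6 libraries of the other lines. Nearby peaks are therefore given as deposited and also per 100000 peaks of the library. The HFF1 label was checked against marker genes, counting a marker as present when both replicates had a promoter peak. All 10 fibroblast markers were present in HFF1, against 4 to 6 in each other line, and COL3A1 and COL6A3, which encode fibrillar and microfibrillar collagens, had such a peak in HFF1 alone. In HFF1, 0 of 5 erythroid, 3 of 5 embryonic kidney, 2 of 5 keratinocyte, 3 of 5 endothelial and 2 of 5 melanocyte markers were present. Of the last 3 lists, the promoters of KRT5, TEK and CLDN5 were called in HFF1 with no peak in any other human library, as those of COL3A1 and COL6A3 were, and TP63, TIE1, MITF and PMEL were called in HFF1 and elsewhere. KRT14, KRT1, DSG3, PECAM1, CDH5, TYR, DCT and MLANA were not called in HFF1. The part of other cells in the results below was not tested.

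Promoters of 8 of the 9 genes were called in HFF1, which means a peak in both replicates, and TCF21 was the exception. The share of all protein-coding genes called in HFF1 was 76.2%. GM12878 had 5 of the 9 promoters called (PRRX1, PRRX2, TBX15, TBX18 and OSR2), where 71.9% of all genes were called. HEK293T had 4 of 9 (TWIST1, TBX18, HAND2 and OSR2), against 67.8% of all genes. K562 had 5 of 9 (TWIST1, TBX15, TBX18, HAND2 and OSR2), against 70.4% of all genes. The share of the 9 genes was thus above the background in HFF1 and below it in the other 3 lines. With 9 genes, a few calls more or less change such a share much, so no difference between lines is drawn from it. No test was made over the list. When the deeper libraries were thinned to the depth of HEK293T, the same 8 promoters were called in HFF1, 3 in GM12878, 3 in K562 and 4 in HEK293T, where 69.4%, 68.1%, 63.5% and 67.8% of all genes were called. None of the 9 promoters was called in HFF1 with no peak in any other human library, a pattern that 2.05% of all genes showed. TBX18 and OSR2 were called in all 4 human lines, as were 59.7% of all genes.

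**Figure D1:**
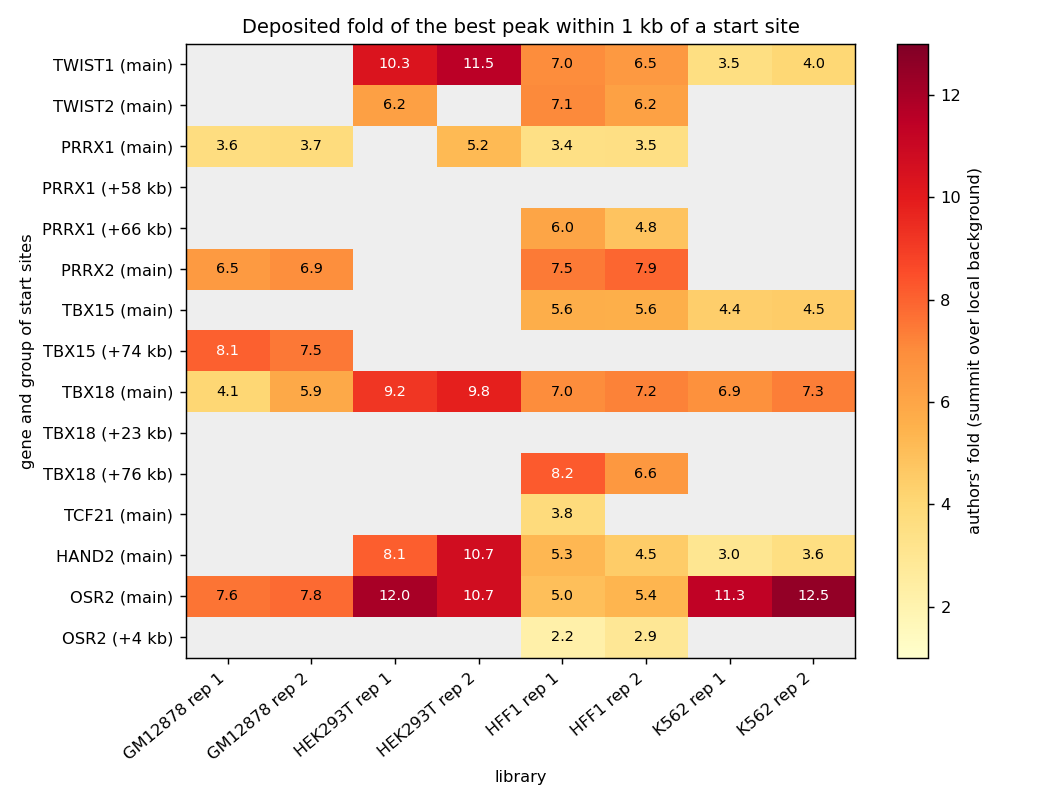
Authors' fold of the best peak within 1 kb of each group of start sites (rows; start sites within 2 kb form 1 group, with its distance from the main start site in kb) in each of the 8 human libraries (columns). Grey cells have no peak. Every gene has a value in at least 1 HFF1 library at its main group, and TWIST2, PRRX2 and TCF21 have few values elsewhere.

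The deposited fold of a peak sets its summit against the background around it and is the authors' own value, so folds are used to describe peaks and not to compare lines. Among the bHLH genes, TWIST1, which acts in cranial and limb mesenchyme and in epithelial-mesenchymal transition, lies on chr7:19020991-19117636 (minus strand). Its promoter had folds of 6.96 and 6.53 in HFF1, 10.3 and 11.5 in HEK293T and 3.54 and 4.05 in K562. GM12878 had no peak there, and its nearest peaks lay 64840 and 64825 bp from the start sites. The open region overlapped the start site and untranslated sequence of the first exon.

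TWIST2, the close relative of TWIST1 that is prominent in dermis, lies on chr2:238848032-238910534 (plus strand). Its promoter had folds of 7.08 and 6.17 in HFF1 and 6.23 in HEK293T replicate 1. The other 5 human libraries had no promoter peak. HFF1 was therefore the only line in which this promoter was called, and the single HEK293T peak, with a −log10 p of 9.18 against 55.6 and 36.1 in HFF1, kept it out of the HFF1-only count. Without HEK293T replicate 1, TWIST2 joined that count.

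HAND2, known from the heart, the limb bud and branchial arches, lies on chr4:173524969-173530229 (minus strand). Its promoter had folds of 5.28 and 4.49 in HFF1, 8.10 and 10.7 in HEK293T and 3.04 and 3.57 in K562, and no peak in GM12878. This is the same set of lines as for TWIST1. The antisense gene HAND2-AS1 overlaps the region, and accessibility has no strand, so these genes cannot be told apart.

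TCF21, which marks epicardium, kidney and lung mesenchyme and cardiac fibroblasts, lies on chr6:133889113-133895553 (plus strand). Its only promoter peak was in HFF1 replicate 1, at chr6:133889070-133889243, with a fold of 3.79 and a −log10 p of 7.53. That −log10 p exceeded those of 8.70% of the peaks in its list. The nearest peak was 6251 bp away in HFF1 replicate 2, 1932 and 1917 bp away in HEK293T and between 27280 and 27308 bp away in GM12878 and K562. TCF21 was thus called in no human line, and without HFF1 replicate 2 it was counted as HFF1-only.

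Of the paired homeodomain genes, PRRX1 lies on chr1:170662728-170739421 (plus strand) and has 3 groups of start sites. At the main group the best folds were 3.44 and 3.52 in HFF1, 3.63 and 3.72 in GM12878 and 5.18 in HEK293T replicate 2, with no peak in the other 3 libraries. The peaks of HFF1 and GM12878 in this group did not lie in the same place. Both HFF1 libraries had peaks in 2 HFF1-only regions upstream of the gene, at chr1:170661781-170661934 and chr1:170662172-170662392. The GM12878 region was at chr1:170664298-170665084, over the coding part of an exon, and HFF1 replicate 1 also had a peak there with a fold of 3.02. A group of start sites 66075 bp downstream of the main one had peaks in HFF1 alone, with best folds of 5.98 and 4.81. The region common to both replicates there, chr1:170730462-170730752, had folds of 5.98 and 4.03. No library had a peak at the group of start sites 58486 bp downstream.

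PRRX2, whose product overlaps with PRRX1 in limb and craniofacial mesenchyme, lies on chr9:129665647-129722674 (plus strand). Its promoter, shown above, had folds of 7.46 and 7.91 in HFF1 and 6.47 and 6.89 in GM12878, and no peak in HEK293T or K562. The HFF1 peaks were 612 and 888 bp wide, and the GM12878 peaks were 236 and 269 bp wide. When each list was limited to its 50000 best peaks, PRRX2 was the only one of the 9 genes with a promoter called in HFF1 and no other library, as were 1.21% of all genes. PRRX1 and HAND2 were then no longer called in HFF1.

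TBX15, which acts in skeletal and dermal mesenchyme, lies on chr1:118883046-118989556 (minus strand). At its main start sites, folds were 5.65 and 5.62 in HFF1 and 4.40 and 4.50 in K562, with no peak in GM12878 or HEK293T. At a start site 74218 bp downstream, only GM12878 had peaks, with folds of 8.07 and 7.51. The count of 5 GM12878 promoters above includes this downstream site, so GM12878 and HFF1 opened different start sites of the gene.

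TBX18, a gene of epicardium, sinoatrial node and ureter mesenchyme, lies on chr6:84687351-84764598 (minus strand). Its main group of start sites had a peak within 1 kb in all 8 human libraries, with best folds of 7.00 and 7.25 in HFF1, 4.06 and 5.86 in GM12878, 9.17 and 9.83 in HEK293T and 6.85 and 7.33 in K562. The peaks of HFF1, HEK293T and K562 lay in the region chr6:84764237-84765027, which covers the stretch shown above and had no peak in GM12878. The GM12878 peaks lay in the adjoining region chr6:84762436-84764233, which was called in all 4 lines. A start site 75851 bp downstream had peaks in HFF1 alone, with folds of 8.17 and 6.56. The region called there was chr6:84687455-84687847, where TBX18-AS1 overlaps TBX18 on the opposite strand.

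OSR2, which acts in palate, joint and tooth mesenchyme, lies on chr8:98944403-98952104 (plus strand). Its main promoter had folds of 5.01 and 5.37 in HFF1, 7.61 and 7.80 in GM12878, 12 and 10.7 in HEK293T and 11.3 and 12.5 in K562. All 8 libraries had a peak there. A second group of start sites 3780 bp downstream had weak peaks in HFF1 alone, with folds of 2.2 and 2.91, and the peaks of the 2 replicates did not overlap each other.

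PRRX1, TBX18 and OSR2 thus each had a downstream group of start sites with peaks in both HFF1 libraries and in no other human library, while TBX15 had one in GM12878. These groups were singled out after their values were seen. The main promoter peaks of HFF1 ranged widely within their own lists. By −log10 p, the TBX18, TWIST2 and TWIST1 promoter peaks exceeded 92.0%, 91.6% and 90.0% of the peaks in HFF1 replicate 1, and 92.0%, 80.0% and 84.5% in replicate 2. The HAND2 peaks exceeded 53.2% in replicate 1, near the middle of the list, and 34.2% in replicate 2, below the middle.

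The CpG content of the promoters, which the choice of genes did not use, was compared with that of all genes. The ratio of observed to expected CpG within 500 bp of the main start site had a median of 0.824 over the 9 genes and 0.725 over all protein-coding genes. It was 0.880 for TBX18, 0.860 for TWIST1 and OSR2, 0.836 for TWIST2, 0.824 for PRRX2, 0.815 for HAND2 and 0.676 for TBX15. PRRX1, at 0.584, and TCF21, at 0.474, were the members below 0.6, and 66.3% of all genes were at or above it. TCF21, the one gene with no called promoter, had the lowest ratio of the 9. Within 1 kb of the main start site TCF21 was again the lowest, at 0.561. These are descriptions of 9 genes with no test.

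Nearby peaks separated HFF1 more clearly for some of the genes than their promoters did. A gene is called higher in HFF1 when both HFF1 libraries lie above all 6 other human libraries in nearby peaks per 100000 peaks. TWIST2 and PRRX1 met this rule, as did 10.1% of the 19867 genes with a nearby peak. None of the 9 genes was lower in both HFF1 libraries than in all others, against 27.3% of all genes. An exact two-sided permutation test over the 28 splits of 8 libraries into 2 and 6 cannot give a p under 0.0357 here. The test exchanges single libraries, although the 8 are 4 lines with 2 replicates each and HFF1 is a single line. Its p-values therefore do not measure the spread between lines. After Benjamini-Hochberg adjustment over all genes the smallest value was 0.175, so no gene of the genome passed 0.05, while 4063 genes had an unadjusted exact p under 0.05. The differences below are therefore described by whether the groups overlap.

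**Figure D2:**
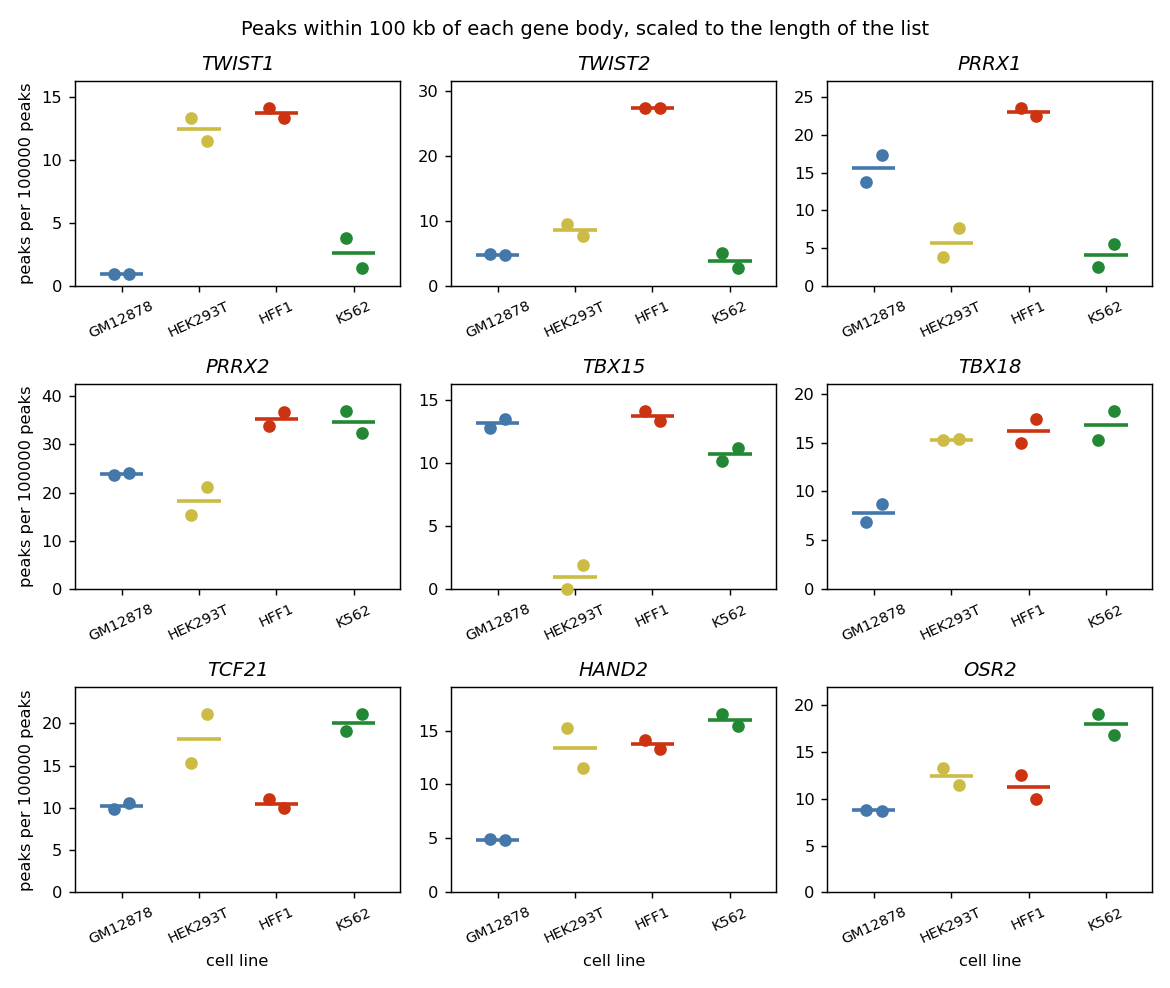
Peaks within 100 kb of each gene body per 100000 peaks of the library (vertical axis from 0, its range set for each gene), by human cell line. Points are the 2 libraries of a line and bars their mean. Both HFF1 points lie above every other point for TWIST2 and PRRX1 and overlap the other lines for the remaining 7 genes.

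TWIST2 had 35 and 33 nearby peaks in HFF1, 5 and 5 in GM12878, 5 and 4 in HEK293T and 4 and 2 in K562. Both HFF1 libraries lay far above all the others. Per 100000 peaks this was 27.5 ± 0.0424 in HFF1 (SD, n = 2) and 5.81 ± 2.39 in the others (SD, n = 6), a ratio of 4.73 (exact permutation p = 0.0357, adjusted p = 0.175). On the log2 scale with 1 added to both means the difference was 2.06, above that of 99.7% of all genes.

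PRRX1 had 30 and 27 nearby peaks in HFF1, 14 and 18 in GM12878, 2 and 4 in HEK293T and 2 and 4 in K562. HFF1 was highest and GM12878 lay between HFF1 and the other lines. Per 100000 peaks this was 23 ± 0.792 in HFF1 (SD, n = 2) and 8.46 ± 5.87 in the others (SD, n = 6), a ratio of 2.72 (exact permutation p = 0.0357, adjusted p = 0.175). For both genes no other protein-coding gene lies in the window, but peaks upstream of PRRX1 also lie within 100 kb of GORAB and count there too.

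TWIST1 had 18 and 16 nearby peaks in HFF1, 7 and 6 in HEK293T, 3 and 1 in K562 and 1 in each GM12878 library. HFF1 had the highest numbers as deposited. After scaling, the shorter HEK293T lists reached 13.3 and 11.5 per 100000 peaks against 14.1 and 13.3 in HFF1, so the groups overlapped by a small margin. The means were 13.7 ± 0.593 in HFF1 (SD, n = 2) and 5.34 ± 5.62 in the others (SD, n = 6; exact permutation p = 0.107, adjusted p = 0.278). The log2 difference of 1.22 was above that of 98.2% of all genes. The windows of TWIST1 also reach HDAC9 and FERD3L.

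TBX15 had 18 and 16 nearby peaks in HFF1, 13 and 14 in GM12878, 8 and 8 in K562 and 0 and 1 in HEK293T. HEK293T was almost without peaks here. Scaled, HFF1 at 13.7 ± 0.593 (SD, n = 2) overlapped GM12878, and the 6 others averaged 8.27 ± 5.81 (SD, n = 6; exact permutation p = 0.143, adjusted p = 0.330).

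PRRX2 had 43 and 44 nearby peaks in HFF1, 24 and 25 in GM12878, 29 and 23 in K562 and 8 and 11 in HEK293T. Its window holds 6 other protein-coding genes, including PTGES and TOR1B, the most of any of the 9. Scaled, the means were 35.2 ± 1.98 in HFF1 (SD, n = 2) and 25.5 ± 7.82 in the others (SD, n = 6), and K562 overlapped HFF1 (exact permutation p = 0.214, adjusted p = 0.429).

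TBX18 had 19 and 21 nearby peaks in HFF1, 12 and 13 in K562, 8 and 8 in HEK293T and 7 and 9 in GM12878. Its scaled means of 16.2 ± 1.79 (SD, n = 2) and 13.3 ± 4.45 (SD, n = 6) overlapped (exact permutation p = 0.536, adjusted p = 0.718). HAND2 had 18 and 16 in HFF1, 13 and 11 in K562, 8 and 6 in HEK293T and 5 and 5 in GM12878. Its scaled means of 13.7 ± 0.593 (SD, n = 2) and 11.4 ± 5.35 (SD, n = 6) overlapped too (exact permutation p = 0.786, adjusted p = 0.896), and GM12878 was lowest for both genes after scaling.

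OSR2 had 16 and 12 nearby peaks in HFF1, 15 and 12 in K562, 9 and 9 in GM12878 and 7 and 6 in HEK293T. K562 was about as high as HFF1 as deposited and above it after scaling, and the scaled means were 11.3 ± 1.83 in HFF1 (SD, n = 2) and 13.1 ± 4.24 in the others (SD, n = 6; exact permutation p = 0.714, adjusted p = 0.852). TCF21 had 14 and 12 in HFF1, 15 and 15 in K562, 10 and 11 in GM12878 and 8 and 11 in HEK293T. Its scaled mean was 10.5 ± 0.722 in HFF1 (SD, n = 2) and 16.2 ± 5.07 in the others (SD, n = 6; exact permutation p = 0.286, adjusted p = 0.512). It was the gene with the lowest position of the 9, with a log2 difference of -0.58 that was above that of 22.6% of all genes.

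The scaling mattered for the count. With peak numbers as deposited, 7 of the 9 genes were higher in HFF1 (all but TCF21 and OSR2), but so were 35.1% of all genes. Of all genes whose groups did not overlap, 27.1% were higher in HFF1 with scaling and 94.7% without it. The median log2 difference was 0.45 over the 9 genes and -0.25 over all genes with scaling, and 1.08 and 0.40 without it. The median of the 9 genes was above that of all genes on both scales.

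**Figure D3:**
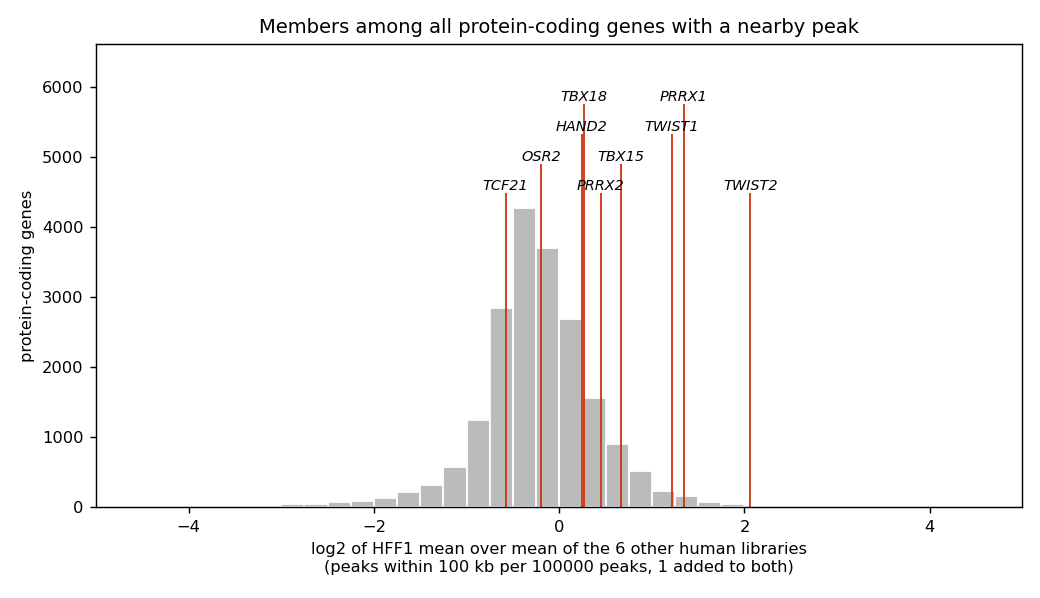
Number of protein-coding genes (grey bars) by the log2 ratio of the HFF1 mean to the mean of the 6 other human libraries in nearby peaks per 100000 peaks, 1 added to both. Red lines mark the 9 genes at their own values, from TCF21 at -0.58 to TWIST2 at 2.06, and their heights have no meaning.

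All 9 windows together held 211 and 197 peaks in HFF1, 88 and 97 in GM12878, 53 and 57 in HEK293T, and in K562 89 in replicate 2 and somewhat more in replicate 1. Per 100000 peaks this was 166 and 164 in HFF1, 86.5 and 93.5 in GM12878, 101.1 and 109 in HEK293T and 128 and 125 in K562. HFF1 was above every other library on both scales. The ratio of its mean to the mean of the 6 others was 1.53 scaled and 2.52 unscaled. The genes did not add to this evenly. Scaled differences between HFF1 and the others were largest for TWIST2, at 21.6, and PRRX1, at 14.5. They were -5.67 for TCF21 and -1.78 for OSR2. The same ratio was not computed over all genes. In bulk data, fewer cells with a site open and a site less open in each cell cannot be told apart.

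The peaks near the 9 genes merged into 317 of the 243200 regions of the human libraries. HFF1 had 164 of them called, GM12878 81, K562 75 and HEK293T 40. Of the 164 regions called in HFF1, 91 were HFF1-only, which is 55.5%, and the share over all regions called in HFF1 was 50.5%. The share near the 9 genes was thus close to the background. The same share for the other lines was 34.6% in GM12878 (28 of 81; 40.6% over all its regions), 28% in K562 (21 of 75; 25.4%) and 7.50% in HEK293T (3 of 40; 10.8%). The 9 genes had a median of 11 HFF1-only regions in the window, against 5 over all protein-coding genes, and 39.7 against 18.6 per Mb of window. Another 39 regions had a peak in HFF1 replicate 1 alone and 17 in replicate 2 alone.

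The genes differed in how many of their HFF1 regions were HFF1-only. The number was 14 of 16 for TWIST1, 16 of 23 for PRRX1, 18 of 26 for TWIST2 and 11 of 16 for TBX18. These 4 shares, from 68.8% to 87.5%, were above that over all HFF1 regions. It was 6 of 13 for HAND2, 14 of 37 for PRRX2, 3 of 8 for OSR2, 4 of 11 for TCF21 and 5 of 14 for TBX15, from 35.7% to 46.2% and below it. TWIST2 had no region called in another line and not in HFF1, while PRRX2 had 14, TBX15 11, PRRX1 10 and OSR2 10. Some of those belonged to 1 other line: 9 regions near TBX15 and 6 near PRRX1 were called in GM12878 and had no peak in any other line.

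When the deeper libraries were thinned to the HEK293T background level, 92 regions near the 9 genes were called in HFF1 and 43 of them (46.7%) were HFF1-only, where the share over all HFF1 regions was 44.2%. TWIST2 then had 8 of 13, PRRX1 7 of 11, TWIST1 6 of 8 and TBX18 4 of 7. The other 5 genes had 18 of the 43. TWIST2 and PRRX1 were again the genes whose HFF1 libraries lay above all others in scaled nearby peaks.

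**Figure D4:**
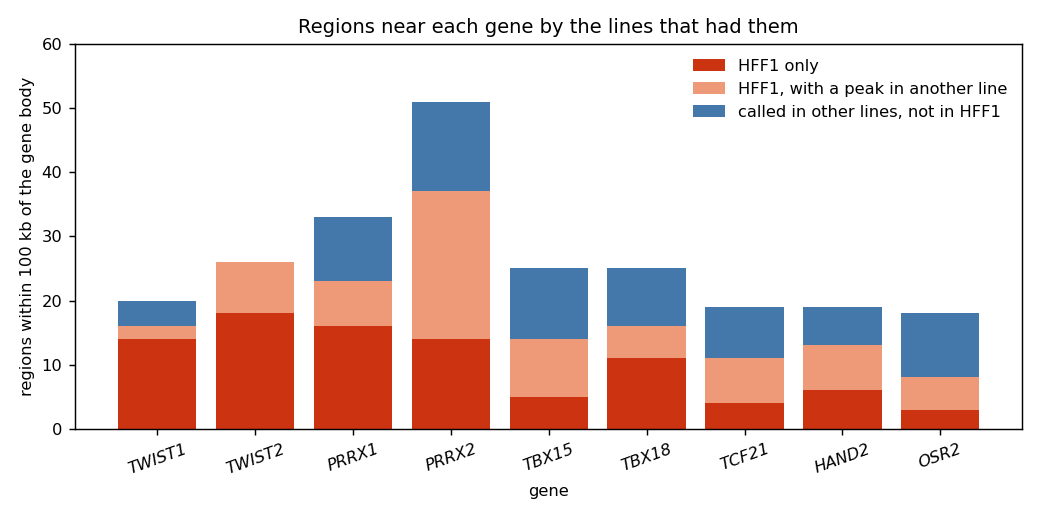
Number of regions called in at least 1 human line within 100 kb of each gene body (bars from 0), split into HFF1-only regions, regions called in HFF1 with a peak in another line, and regions called in other lines but not in HFF1. Among the regions called in HFF1, most are HFF1-only for TWIST1, TWIST2, PRRX1 and TBX18, with 14, 18, 16 and 11 such regions.

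The 91 HFF1-only regions lay mostly away from start sites, as HFF1-only regions did in general. No promoter window was overlapped by 86 of the 91, and by 47510 of all 51635 HFF1-only regions, a similar share. The remaining 5 of the 91 overlapped a promoter window. By distance from the gene's main start site, 9 lay within 10 kb and 35 from 10 to 50 kb. Another 33 lay from 50 to 100 kb and 14 farther within the window. The regions were downstream of the main start site in 63 cases and upstream in 28. The window reaches 100 kb past both ends of the gene body, so its downstream side is longer. The split was not compared with that difference in length. By annotation, 39 lay in introns, 49 between protein-coding genes and 3 over exons. For 73 of them the nearest main start site was that of the gene itself. At the window limit, 6 HFF1-only regions lay in the last 10 kb inside and 7 in the first 10 kb outside, so the window does not enclose all of them.

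**Figure D5:**
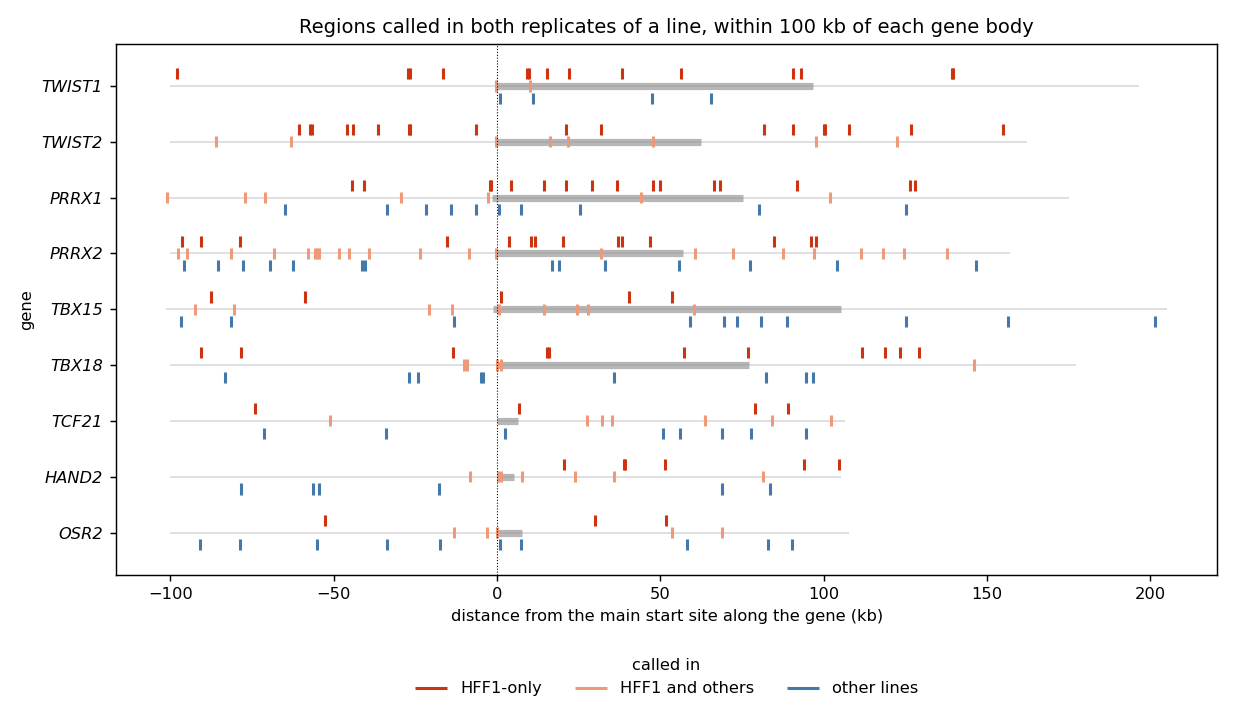
Position of regions called in both replicates of a line along each gene, in kb from its main start site in the direction of transcription. Thick grey bars are gene bodies and thin lines the 100 kb windows; ticks above the line are HFF1-only regions, ticks on it regions called in HFF1 with a peak in another line, and ticks below it regions called in other lines only. HFF1-only ticks are spread over both flanks of TWIST2 and along the TWIST1 and PRRX1 gene bodies.

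Around TWIST2, HFF1-only regions were divided evenly, with 9 upstream and 9 downstream of the main start site, and 16 of 18 lay between genes. The best of them was chr2:238938394-238939358, 90791 bp downstream, with folds of 11 in both libraries, and its −log10 p exceeded 95.0% and 93.7% of the peaks in the 2 HFF1 lists. The next, chr2:238811233-238812204, lay 36367 bp upstream with folds of 11.9 and 12.4, and its sequence above carries 1 E-box as CAGATG. Both regions were thus among the stronger peaks of their lists.

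Around TWIST1, 10 of the 14 HFF1-only regions were in introns, of which 8 lay in introns of TWIST1 itself, whose longest annotated transcript runs far downstream, and 2 in HDAC9. The best was chr7:19060660-19061639, 56487 bp downstream of the main start site, with folds of 12.8 and 10.8. The next was chr7:19133858-19134413, between genes upstream of the main start site, with folds of 11.4 and 11.3. One more, chr7:19144600-19144932, covered the promoter of FERD3L, a bHLH gene of the neural tube, with folds of 6.05 and 5.34.

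The 16 HFF1-only regions of PRRX1 included 9 over the gene itself. The best was chr1:170623200-170623627, 40718 bp upstream and between protein-coding genes, with folds of 10.8 and 9.04, and it is the site with 2 AP-1 heptamers. The next, chr1:170755811-170756132, lay 91840 bp downstream with folds of 7.86 and 8.82.

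PRRX2 had its best HFF1-only region in its own intron, at chr9:129702440-129703161 with folds of 9.14 and 9.34, and its −log10 p exceeded 93.2% and 93.4% of the HFF1 peaks. The next, chr9:129761356-129762405, lay 8838 bp from the start site of PTGES, a prostaglandin E synthase gene, and 96233 bp from that of PRRX2, with folds of 7.03 and 7.58. For 8 of its 14 HFF1-only regions another gene had the nearest main start site.

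TBX18 had its best HFF1-only regions 118693 and 111931 bp downstream of the main start site, beyond the end of the gene. They were chr6:84645681-84646129, with folds of 10.5 and 9.18, and chr6:84652309-84653026, with folds of 10.5 and 8.92. TBX18 was the nearest gene to all 11 of its HFF1-only regions. TBX15 had its best ones upstream, within introns of the neighbouring gene WARS2, a mitochondrial tryptophanyl-tRNA synthetase gene. They were chr1:119075645-119076114, with folds of 9.61 and 8.82, and chr1:119046541-119047456, with folds of 9.82 and 8.50.

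TCF21 had few HFF1-only regions, but 1 of them, chr6:133978098-133978543, had the highest folds of the sites listed for the 9 genes, at 13.2 and 13.9. It lies 89207 bp downstream, in introns of TBPL1 and of ENSG00000288529, and is nearer to their start sites than to that of TCF21. HAND2 had 6 HFF1-only regions, all downstream of its start site and between protein-coding genes. The best was chr4:173436088-173436623 with folds of 10.9 and 10.1, and it lay 37239 bp from the start site of SCRG1 and 93874 bp from that of HAND2. OSR2 had 3, of which the best was chr8:98974242-98974884 with folds of 7.44 and 6.76, and its −log10 p exceeded 53.0% and 43.1% of the peaks in the HFF1 lists.

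The letters in the HFF1-only regions were then counted within 150 bp of the centre of the 86 regions away from promoters. AP-1 letters were present in 19 of them, or 22.1% (exact 95% interval 13.9% to 32.3%), against 24.6% of all 47510 distal HFF1-only regions and 18.0% of the 149926 distal regions called in any line. The E-box CATCTG was present in 34.9% (24.9% to 45.9%), against 36.9% and 28.2%. TAATTA was present in 12.8% (6.56% to 21.7%), against 7.81% and 7.30%. GGAATG was present in 23.3% (14.8% to 33.6%), against 26.7% and 18.5%, and TGTGGT in 26.7% (17.8% to 37.4%), against 24.9% and 25.4%. AGGTGTGA was in 0 of 86 regions, which allows a share of up to 3.49% by the limit of 3 counts and of 4.20% by the exact 95% interval, and in 0.768% of all distal HFF1-only regions. Each interval covers counting error only, and each includes the share in all distal HFF1-only regions, so no difference from other HFF1-only sites was detectable with this number of regions. Within the 9 genes, E-box letters were in 3 of 13 regions near TWIST1, 4 of 18 near TWIST2, 6 of 13 near PRRX1, 6 of 14 near PRRX2, 3 of 5 near TBX15, 4 of 10 near TBX18, 3 of 4 near TCF21, 1 of 6 near HAND2 and 0 of 3 near OSR2. These small counts were not tested.

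Other transcription factor genes of mesenchyme, 53 in all, were read in the same way. Their promoters were called for 44 genes in HFF1, 37 in HEK293T, 31 in K562 and 27 in GM12878, against 76.2%, 67.8%, 70.4% and 71.9% of all genes. In nearby peaks 13 of the 53 were higher in HFF1 and 11 lower, against 10.1% and 27.3% of all genes, and the median log2 difference was 0.31 against -0.25 over all genes. By family, 1 of 13 bHLH partners and relatives was higher and 5 were lower, and 4 of 19 homeodomain genes were higher and 4 lower. Of 7 T-box genes 3 were higher and 0 lower, and of 14 zinc finger and other genes 5 were higher and 2 lower. Promoters called in HFF1 with no peak in any other human library belonged to SCX, a tendon bHLH gene, FERD3L and TBX5, a T-box gene of forelimb and heart. TBX5 had 24 and 24 nearby peaks in HFF1 and at most 1 in each other human library.

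Paralogues of the 9 genes did not all follow them. HAND1, the relative of HAND2, was called at its promoter in HFF1 and HEK293T, and its nearby peaks were lower in HFF1, at 7.69 per 100000 peaks against a mean of 20.8 in the others. OSR1, the relative of OSR2, was called at its promoter in HFF1 alone, with a further peak in HEK293T replicate 2, and had 11 and 10 nearby peaks in HFF1 against 4 to 6 in the other libraries. Scaled, OSR1 had 8.47 in HFF1 and 6.64 in the others and overlapped. MSC, the relative of TCF21, was called in all 4 lines, and TBX22 had no nearby peak in any library.

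Among the 53 genes, the 5 whose nearby peaks per 100000 peaks were most like the mean of the 9 genes over the 8 human libraries were FOXC2 (Pearson r = 0.96), ALX4 (0.93), SNAI2 (0.92), TBX5 (0.90) and FOXF1 (0.90). FOXC2 and FOXF1 are forkhead genes of mesoderm, ALX4 is a paired-type homeodomain gene and SNAI2 a zinc finger gene of epithelial-mesenchymal transition. The 8 libraries are 4 lines in 2 replicates, and all genes of a library are scaled by the same list length. These r values are therefore a description. Within the 9 genes, r with the mean of the other 8 ran from 0.67 for TWIST2 and 0.62 for PRRX2 down to 0.11 for OSR2 and -0.27 for TCF21. The 9 genes did not share 1 pattern over the lines.

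In mouse embryonic stem cells, which are not mesenchymal, 8 of the 9 genes of the same names had a promoter peak in both libraries, and 73.1% of all mouse protein-coding genes did. Prrx1 was the exception and had no promoter peak in either library. The best folds of the other genes ran from 4.33 for Tcf21 in replicate 1, to 6.71 for Osr2 in replicate 2. Twist2 had folds of 5.33 and 5.16 and Hand2 5.32 and 5.29. Most of these promoters were thus open in mESC, as were the promoters of most mouse genes. Tcf21, whose human counterpart was called in no human line, was among the open ones.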

How the data were processed

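Bulk ATAC-seq was measured in 10 libraries, and the 8 human ones were compared, with mESC described apart. Per the submitters' processing notes, the tools were cutadapt 3.2, Bowtie2 2.4.2, Picard and MACS2 2.2.7.1 and the builds hg38 and mm10. The notes give no further settings. Per the file headers and values, the authors deposited 1 peak list per library as narrowPeak tables, and no list pools replicates. The deposited columns are a fold (a linear ratio of summit to local background), the −log10 of a p-value and of a q-value, and a score. The deposited −log10 q values start at 2.00 to 2.05. Folds and −log10 values come from the authors and are compared within a list alone. A gene without a peak was below this threshold at the depth of its library.

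Depth was recovered from the deposited fold and −log10 p, which a whole-number pileup and a local background solved for 100% of peaks. Median pileups were 16 reads in HEK293T and 30 to 35 in the other human lists, and thinning the deeper lists to the HEK293T level was 1 alternative.

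Peaks on the autosomes and X were read against GENCODE release 44 (GRCh38) and M21 (GRCm38). A promoter peak overlaps the 1 kb on either side of any annotated start site of the gene, and a nearby peak lies within 100 kb of its body. The main start site is that of the transcript the annotation marks as representative. Nearby peaks were scaled per 100000 peaks. Exact two-sided permutation tests over 28 splits were adjusted by the Benjamini-Hochberg method over 19867 genes. The calls and the test were run on simulated data with independent libraries. Those data did not have 2 replicates per line that resemble each other, so they do not assess the test for this design. Motif letters were searched on both strands within 150 bp of a region's centre, and CpG ratios within 500 bp. Python 3.11.15, numpy 2.4.6, pandas 2.3.3 and scipy 1.17.1 were used.

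The 9 genes, the list of 53 other genes and the markers were chosen with earlier results of these data known. All 9 genes are named. Of the 53, those with a promoter called in HFF1 alone, the paralogues HAND1, OSR1, MSC and TBX22, and the 5 most like the 9 genes are named. Up to 2 HFF1-only regions per gene are given. The result of another marker list is not reported here. Alternatives were a stricter −log10 q, 50000 peaks per library, thinning, other windows, no scaling, a replicate block and leaving out each library. Sequences on chromosome 8 and of untranslated regions were not printed.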

Additional observations from a re-analysis of the deposited data

How the results depend on the processing

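The alternatives were planned, except leaving out both HEK293T libraries, which was chosen after seeing the data. In all, 259 recomputed values kept their direction or moved little, 38 moved and 5 changed sign. The number of genes higher in HFF1 was 2 of 9 (TWIST2 and PRRX1). It became 4 (TWIST1, TWIST2, PRRX1 and TBX15) with a −log10 q of at least 5 or a 200 kb window, and 7 without scaling. When 1 library was left out it ranged from 2 to 4, with 4 (TWIST1 and TBX15 in addition) without HFF1 replicate 2. Leaving out a library can only add genes to this count, so TWIST2 and PRRX1 stayed in it by construction. The differences of HAND2 became -0.33 per 100000 peaks with 50000 peaks per library and -1.99 with a 200 kb window, that of OSR2 became 4.33 peaks without scaling and 0.67 with a 50 kb window, and that of TCF21 became 1.33 peaks without scaling; the cause was not tested. The count of promoters called in HFF1 and in no other library, 0 of 9, became 1 with 50000 peaks per library (PRRX2; 6 of 9 were then called in HFF1, 4 in HEK293T, 3 in K562 and 2 in GM12878) and 1 without both HEK293T libraries (TWIST2). It ranged from 0 to 1 with 1 library left out, at 1 without HEK293T replicate 1 (TWIST2) or HFF1 replicate 2 (TCF21). Regions near the genes called in HFF1 and HFF1-only, 164 and 91, became 62 and 23 with 50000 peaks, 92 and 43 after thinning and 255 and 146 with a 200 kb window, and ranged from 164 to 208 and from 91 to 128 with 1 library left out. With 50000 peaks the HFF1-only share near the genes, 37.1%, was below that over all HFF1 regions, 38.9%. The scaled ratio for all 9 genes, 1.53, became 1.50 after thinning, 2.52 without scaling, 1.71 with 50 kb, 1.43 with 200 kb and 1.52 without both HEK293T libraries, and ranged from 1.48 to 1.60 with 1 library left out. Within 50 bp of the centre, a shorter window, AP-1 letters fell to 9.30% of regions, against 12.4% of all distal HFF1-only regions in that window. CATCTG fell to 15.1% (against 16.2%), TAATTA to 4.65% (2.52%), GGAATG to 11.6% (10.8%) and TGTGGT to 16.3% (10.1%). These differences were not tested. Read backwards, the letters were present in 4.65% for AP-1, 6.98% for CATCTG, 8.14% for TAATTA, 5.81% for GGAATG and 17.4% for TGTGGT. With the replicate number as a block, 16 arrangements allow no exact p under 0.0625, and TWIST2 and PRRX1 both had that p (adjusted p = 0.282) and remained the 2 genes higher in HFF1. Same-numbered libraries did not deviate together in scaled nearby peaks (correlations from -0.01 to 0.03 across genes). Scaling removes effects common to a whole library, so whether same-numbered libraries shared a batch was not tested. Leaving out an HFF1 library allows no exact p under 0.143. The shallow HEK293T lists limit what can be said of absent peaks.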
